A study of Homo sapiens with 12 samples.

Results

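The genes described here encode parts of the lysosome and of the autophagy machinery, followed in 2 human T-cell acute lymphoblastic leukaemia (T-ALL) lines treated with the peptide SAHM1. They are 38 genes, listed by name for the known roles of their proteins, with earlier results of these data in view. The strong fall of LGMN in HPB-ALL was known when the list was made. Its test there, and those of its line difference and mean, are thus not tests of an unselected gene. They fall into 2 transcription factors, 10 proteases, 6 glycosidases, 2 soluble proteins of lipid handling, 5 membrane proteins and 13 genes of the autophagy core. A gene was measured where the array annotation gave a probe set that symbol alone, and its value is the mean of the log2 values of all such probe sets. That held for 37 of the 38 genes, with 89 probe sets, among 19775 genes in all. GLB1, a lysosomal beta-galactosidase, was on a probe set shared with TMPPE and was not analysed here.

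Lysosomes are acidic compartments in which proteases, glycosidases and lipid-handling proteins break down material delivered by endocytosis and autophagy. In autophagy, the ULK1 kinase complex and the BECN1 lipid kinase complex start a membrane that is extended by ATG conjugation enzymes, coated with MAP1LC3B and GABARAP family proteins, and fused with a lysosome. The factors TFEB and TFE3 are held in the cytoplasm by active mTORC1 on the lysosome surface, and in the nucleus they bind the CACGTG element found near many lysosomal genes.

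The 4 groups were HPB-ALL cells with SAHM1, HPB-ALL cells with DMSO, KOPT-K1 cells with SAHM1 and KOPT-K1 cells with DMSO. SAHM1 is a hydrocarbon-stapled peptide modelled on the mastermind protein MAML1, designed to occupy the groove of the NOTCH transcription complex. It was given at 20 µM for 24 hours, and the control cultures received the same amount of the vehicle DMSO, so no inactive peptide enters the comparison. HPB-ALL and KOPT-K1 are established T-ALL lines that carry activated NOTCH1, each line standing for 1 leukaemia. Each group had 3 cultures and 1 Affymetrix U133 Plus 2.0 array per culture, 12 arrays in all, and p-values measure the spread between cultures of 1 experiment.

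The deposited values are linear ratios in which 1 is the DMSO mean of the line concerned. Levels are therefore lost: no gene can be called expressed or dim, genes cannot be ranked by level, and the labelled T-cell identity could not be checked. Of 8 T-cell markers, 1 rose and 3 fell in HPB-ALL, and in KOPT-K1 none of the 8 passed the test (2 at an unadjusted p under 0.05, limma). CD3G, a chain of the T-cell receptor complex, rose by 0.71 on the log2 scale in HPB-ALL, and the 3 that fell there were CD7, CD247 and LCK. The CD3G log2 values in HPB-ALL were 0.69, 0.59 and 0.66 with SAHM1, against 0.52, -0.36 and -0.35 with DMSO. DMSO array 1 was thus just under the SAHM1 arrays. In KOPT-K1 the CD3G change was -0.50 (limma adjusted p = 0.08). Of 7 myeloid markers measured, 0 passed in HPB-ALL, also at an unadjusted p under 0.05, and 1 rose in KOPT-K1 (CD163). Of 3 B-cell markers, 0 passed in HPB-ALL, also unadjusted, and 1 rose in KOPT-K1 (MS4A1). Over all genes, 9.34% passed in HPB-ALL and 19.0% in KOPT-K1. The 18S ribosomal RNA probe sets stood apart in HPB-ALL: their mean log2 value was 1.73, 1.89 and 1.35 on the SAHM1 arrays, against 1.05, -1.01 and -1.65 on the DMSO arrays. That is a difference of 2.19 (exact permutation test, two-sided, p = 0.1, which is as small as 3 arrays against 3 can give). In KOPT-K1 it was the spiked-in control probe sets that differed, by 0.83 (exact permutation p = 0.1). The probe set at the 5′ end of the ACTB transcript, a sign of RNA quality, moved with treatment in both lines. Its log2 value was -0.28, -0.59 and -0.23 on the HPB-ALL SAHM1 arrays, against -0.09, 0.03 and 0.05 with DMSO. In KOPT-K1 it was -0.22, -0.33 and -0.36 with SAHM1, against -0.02, 0.02 and 0.0033 with DMSO. On each SAHM1 array it was lower than the ACTB probe set at the 3′ end, which lay between -0.18 and -0.06 there. For GAPDH the 5′ probe set was at -0.11, -0.12 and -0.01 on the HPB-ALL SAHM1 arrays, and the 3′ probe set at -0.06, -0.08 and -0.05. On the KOPT-K1 SAHM1 arrays the GAPDH 5′ values were -0.03, -0.08 and -0.07, and the 3′ values were all -0.07. The GAPDH 5′ value was thus close to its 3′ value, and not lower on each SAHM1 array. The part of RNA quality in the results was not tested.

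In both lines the members that passed the test under SAHM1 fell. None rose with all 12 arrays as deposited. GLA and NPC2 passed as higher in KOPT-K1 once each array was centred on its median. Each also passed there with certain single arrays left out: NPC2 without HPB-ALL DMSO array 1 or 2, and GLA without KOPT-K1 SAHM1 array 2. In HPB-ALL, 6 of 37 fell: the proteases LGMN, CTSA, CTSC, CTSH and TPP1 and the saposin precursor PSAP. In KOPT-K1, 5 fell: the proteases CTSC and TPP1, the membrane proteins LAMP2 and MCOLN1, and the autophagy protein WIPI1. A call is an adjusted p under 0.05 in limma after Benjamini-Hochberg adjustment over all 19775 genes. By that rule 9.34% of all genes were called in HPB-ALL (4.96% higher, 4.38% lower) and 19.0% in KOPT-K1 (5.85% higher, 13.2% lower). The members called, all lower, were thus 16.2% of those measured in HPB-ALL and 13.5% in KOPT-K1. The KOPT-K1 share is near the 13.2% of all genes called lower there and below the 19.0% called in either direction. The HPB-ALL count includes LGMN, whose fall there was known when the list was made. At an unadjusted p under 0.05, 1 member was higher and 8 were lower in HPB-ALL, and 3 were higher and 10 lower in KOPT-K1.

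The median log2 change over the 37 members was -0.06 in HPB-ALL, where the median over all genes was -0.02. In KOPT-K1 the median over the members was -0.04, where that over all genes was 2.0e-05. In HPB-ALL, 11 members had all 3 SAHM1 arrays below all 3 DMSO arrays and 2 had them above, where 15.7% and 13.4% of all genes did so (29.1% together). The 11 include LGMN, whose fall in HPB-ALL was known beforehand. In KOPT-K1, 12 members were below and 5 above, where the shares of all genes were 21.6% and 13.5% (35.1% together). In the mean of both lines 6 members fell (LGMN, CTSC, TPP1, PSAP, MCOLN1 and WIPI1) and none rose (2 higher at an unadjusted p under 0.05, limma), where 11.3% of all genes were called, 3.16% as higher and 8.12% as lower. For LGMN, PSAP and WIPI1 the line difference passed as well, and their lower mean is not a fall in each line. In HPB-ALL and KOPT-K1, LGMN was at -1.05 and 0.21, PSAP at -0.34 and -0.00019, and WIPI1 at 0.15 and -1.06. CTSC and TPP1 were called in both lines, 4 members in HPB-ALL alone, 3 in KOPT-K1 alone, and 28 in neither. In bulk RNA, fewer cells that carry a transcript and less of it per cell cannot be told apart.

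**Figure D1:**
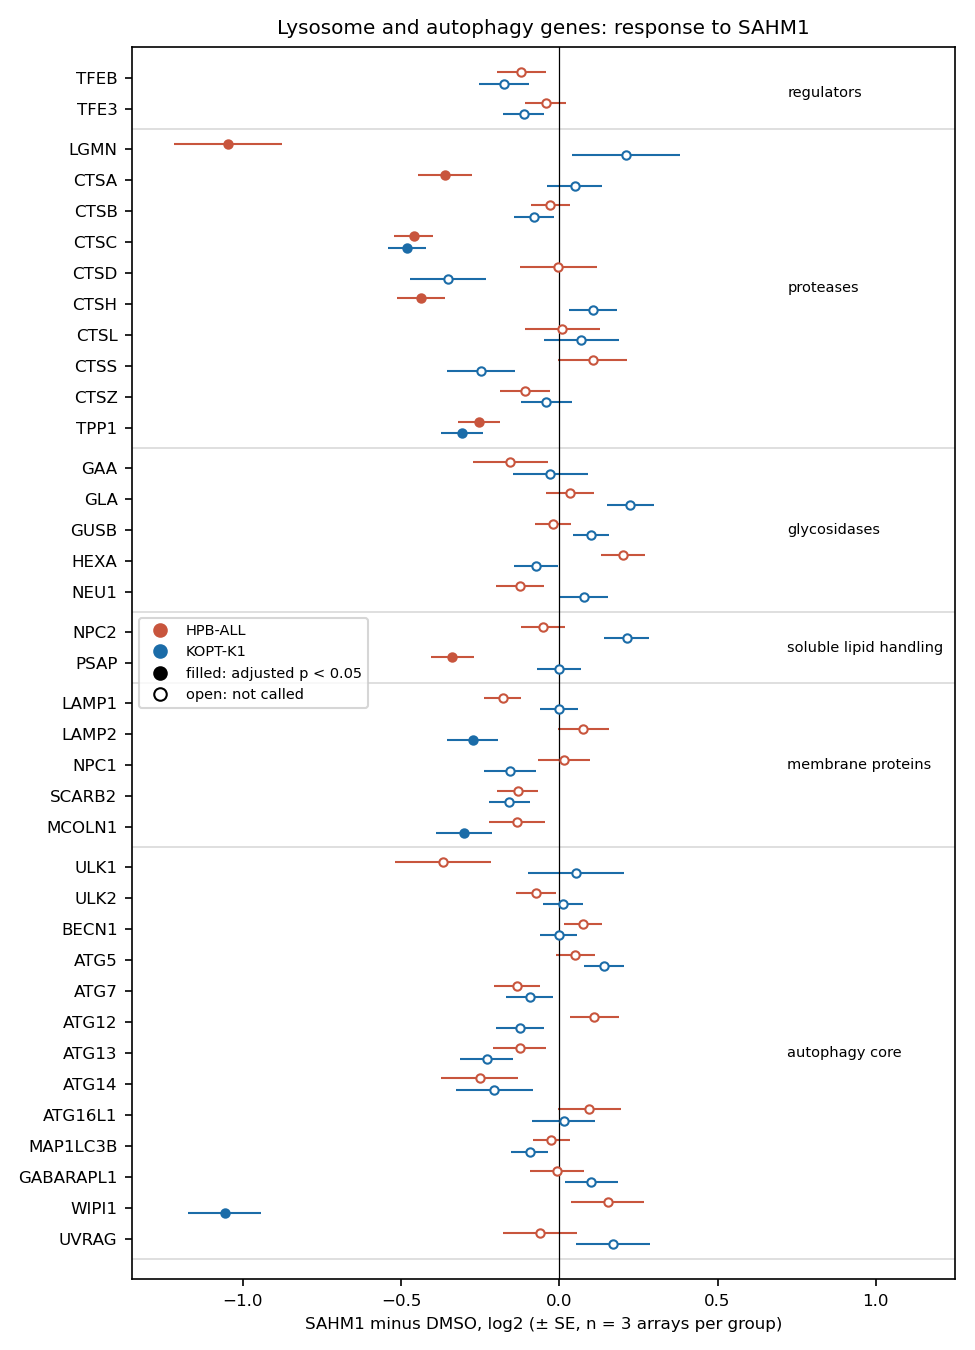
Log2 change with SAHM1 (SAHM1 minus DMSO) of each of the 37 measured genes, by class, with HPB-ALL above KOPT-K1 for each gene; points are limma estimates, bars are 1 SE and filled points passed the test. LGMN in HPB-ALL and WIPI1 in KOPT-K1 lie near -1, and most other points lie within 0.5 of 0.

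Among the regulators, neither TFEB nor TFE3 passed the test in either line. TFEB had a log2 change of -0.12 ± 0.08 (SE) in HPB-ALL (limma adjusted p = 0.421) and of -0.17 ± 0.08 in KOPT-K1 (adjusted p = 0.136). Its ratios were 0.896, 0.936 and 0.925 on the HPB-ALL SAHM1 arrays, against 0.971, 0.958 and 1.07 with DMSO. The HPB-ALL groups did not overlap, by a small margin. TFE3 had a log2 change of -0.04 in HPB-ALL and of -0.11 in KOPT-K1. Transcript abundance does not show where these factors are in the cell, which is how their activity is mostly set.

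The CACGTG element that TFEB and TFE3 bind was looked for in the RefSeq promoter windows (250 bases before to 50 after the transcript start, build GRCh38.p14). A window was given for 30 of the 37 measured members. CACGTG, which reads the same on both strands, was in 7 of the 30 windows (23.3%): those of NEU1, CTSD, LAMP1, ATG14, GAA, MCOLN1 and CTSA. Of the 15384 tested genes with a window, 1672 (10.9%) held it. The longer TCACGTG, which contains CACGTG and was searched on both strands, was in the same 7 member windows (23.3%) and in 5.91% of all windows. Of these 7 genes, 1 fell in HPB-ALL (CTSA) and 1 fell in KOPT-K1 (MCOLN1). The stretches below show those 2 genes, LAMP1 because its window held the most matches (6, of which 5 lie in the stretch), and WIPI1 because it changed most in KOPT-K1. Each runs 5′ to 3′ on the gene's own strand, and capitals mark CACGTG. The CTSA stretch is chr20:45891235-45891334 on the plus strand, the MCOLN1 stretch chr19:7522524-7522623 on the plus strand, the LAMP1 stretch chr13:113297019-113297219 on the plus strand, and the WIPI1 stretch chr17:68457497-68457596 on the minus strand. Those of CTSA, MCOLN1 and WIPI1 cover the 100 bases before the start.
CTSA: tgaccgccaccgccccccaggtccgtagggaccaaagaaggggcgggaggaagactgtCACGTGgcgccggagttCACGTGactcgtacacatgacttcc
MCOLN1: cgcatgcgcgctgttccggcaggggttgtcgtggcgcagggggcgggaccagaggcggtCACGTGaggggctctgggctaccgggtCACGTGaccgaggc
LAMP1: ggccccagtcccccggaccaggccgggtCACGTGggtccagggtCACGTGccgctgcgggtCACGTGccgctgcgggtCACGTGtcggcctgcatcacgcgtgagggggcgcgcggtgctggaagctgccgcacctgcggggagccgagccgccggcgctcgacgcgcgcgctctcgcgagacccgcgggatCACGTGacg
WIPI1: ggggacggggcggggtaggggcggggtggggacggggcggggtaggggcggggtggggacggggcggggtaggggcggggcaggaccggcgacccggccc
The CTSA and MCOLN1 stretches each hold 2 matches within the last 50 bases before the start, and the WIPI1 stretch holds none. A match is a run of letters and not evidence of binding, and no window of LGMN, CTSB, CTSS, HEXA, LAMP2, PSAP or UVRAG was used here.

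LGMN had the largest change of any member in HPB-ALL. It encodes legumain, an asparaginyl endopeptidase that also processes the precursors of several cathepsins. Its ratios in HPB-ALL were 0.368, 0.535 and 0.569 with SAHM1, against 0.999, 0.895 and 1.11 with DMSO. All 3 SAHM1 arrays lay far below the DMSO arrays. The log2 change was -1.05 ± 0.17 (limma adjusted p = 0.00253), a 2.07-fold lower value. In KOPT-K1 the ratios were 0.995, 1.04 and 1.49 with SAHM1, against 0.946, 1.09 and 0.961 with DMSO. There the groups overlapped, with 1 SAHM1 array above the rest, and the change of 0.21 ± 0.17 did not pass (adjusted p = 0.426). LGMN was measured by 1 probe set.

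CTSC fell in both lines as a gene. It encodes cathepsin C, also called dipeptidyl peptidase I, which trims and so activates granule serine proteases of immune cells. Its ratios in HPB-ALL were 0.734, 0.715 and 0.730 with SAHM1, against 0.985, 0.989 and 1.02 with DMSO. In KOPT-K1 they were 0.775, 0.675 and 0.699 with SAHM1, against 0.995, 1.01 and 0.994 with DMSO. The groups did not overlap in either line. The log2 change was -0.46 ± 0.06 in HPB-ALL (limma adjusted p = 0.00073) and -0.48 ± 0.06 in KOPT-K1 (adjusted p = 0.000293). Of its 4 probe sets 3 passed in each line, with changes from -0.69 to -0.12 in HPB-ALL and from -0.99 to -0.14 in KOPT-K1. The probe set at -0.99 in KOPT-K1 and the one at -0.69 in HPB-ALL passed as lower in both lines. The lines differed by probe set in opposite directions: 1 was -0.59 in HPB-ALL and -0.14 in KOPT-K1 (difference -0.45, adjusted p = 0.0132), another -0.44 in HPB-ALL and -0.99 in KOPT-K1 (0.55, adjusted p = 0.0351).

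TPP1, a tripeptidyl peptidase whose loss causes a childhood neuronal storage disease, also fell in both lines. Its ratios in HPB-ALL were 0.814, 0.816 and 0.887 with SAHM1, against 0.966, 0.997 and 1.04 with DMSO. In KOPT-K1 they were 0.773, 0.851 and 0.785 with SAHM1, against 1.00, 0.939 and 1.04 with DMSO. In both lines each SAHM1 array was below each DMSO array. The change was -0.25 ± 0.07 in HPB-ALL (limma adjusted p = 0.0313) and -0.31 ± 0.07 in KOPT-K1 (adjusted p = 0.00699), with 2 of 4 probe sets called in each. The HPB-ALL call of TPP1 was lost under 11 of 21 alternatives. These include leaving out SAHM1 array 1 or 2 or DMSO array 2 or 3 (adjusted p from 0.0871 to 0.121), the median of probe sets (adjusted p = 0.0547), the line fitted alone (adjusted p = 0.0513) and the replicate number as a block (adjusted p = 0.0794). Without probe sets ending in _x_at or _s_at, TPP1 was -0.058 in HPB-ALL (adjusted p = 0.909) and -0.23 in KOPT-K1 (adjusted p = 0.412).

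CTSH and CTSA, each measured by 1 probe set, fell in HPB-ALL and did not pass in KOPT-K1. CTSH encodes cathepsin H, a cysteine aminopeptidase, and its HPB-ALL ratios were 0.766, 0.756 and 0.695 with SAHM1, against 1.02, 1.03 and 0.957 with DMSO. The groups stood clear of each other, and the change was -0.44 ± 0.07 (limma adjusted p = 0.0033). In KOPT-K1 they overlapped, at 1.06, 1.02 and 1.14 with SAHM1, against 1.07, 1.01 and 0.912 with DMSO (change 0.11 ± 0.07, adjusted p = 0.352). CTSA encodes cathepsin A, a carboxypeptidase that also protects beta-galactosidase and the neuraminidase NEU1 in a shared complex. Its HPB-ALL ratios were 0.843, 0.723 and 0.767 with SAHM1, against 0.908, 1.02 and 1.07 with DMSO. The groups did not overlap, and the change was -0.36 ± 0.09 (adjusted p = 0.0205), lost without SAHM1 array 2 or 3 or DMSO array 2 or 3 (adjusted p from 0.0666 to 0.0952). In KOPT-K1 its ratios of 1.14, 0.991 and 0.973 with SAHM1 overlapped those of 1.05, 0.987 and 0.967 with DMSO (0.05 ± 0.09, adjusted p = 0.744).

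The other 5 proteases did not pass in either line. CTSD, the main aspartic protease of the lysosome, had a log2 change of -0.0026 in HPB-ALL and of -0.35 ± 0.12 in KOPT-K1 (limma adjusted p = 0.06), where all 3 SAHM1 arrays were below the DMSO arrays. The cysteine proteases CTSB, CTSL and CTSZ had a log2 change of -0.11 to 0.01 in HPB-ALL and of -0.08 to 0.07 in KOPT-K1. CTSS, the cathepsin that trims the MHC class II invariant chain, had a log2 change of 0.10 in HPB-ALL and of -0.25 in KOPT-K1 (adjusted p = 0.131).

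Among the 5 measured glycosidases none passed in either line, with 1 at an unadjusted p under 0.05 in each (limma). HEXA, the alpha subunit of beta-hexosaminidase, had a log2 change of 0.20 ± 0.07 in HPB-ALL (adjusted p = 0.0974), with all 3 SAHM1 arrays above the DMSO arrays. GLA, which removes terminal galactose from glycolipids, had a log2 change of 0.22 ± 0.08 in KOPT-K1 (adjusted p = 0.0544). The glucosidase GAA, the glucuronidase GUSB and NEU1 had a log2 change of -0.15 to -0.02 in HPB-ALL and of -0.03 to 0.10 in KOPT-K1.

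PSAP, the precursor of the saposins that help enzymes reach membrane lipids, fell in HPB-ALL. Its ratios there were 0.796, 0.724 and 0.857 with SAHM1, against 0.971, 1.03 and 0.997 with DMSO. Each SAHM1 array was below each DMSO array, and the change was -0.34 ± 0.07 (limma adjusted p = 0.0091), with 1 of its 2 probe sets called. In KOPT-K1 the ratios of 1.02, 0.992 and 0.983 with SAHM1 lay among those of 0.969, 1.05 and 0.977 with DMSO. NPC2, the soluble carrier of lysosomal cholesterol, had a log2 change of -0.05 in HPB-ALL and of 0.21 ± 0.07 in KOPT-K1 (adjusted p = 0.0513). With each array centred on its median, which shifted no array by more than 0.02, GLA and NPC2 passed in KOPT-K1 as higher, and the KOPT-K1 split became 2 higher and 5 lower.

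**Figure D2:**
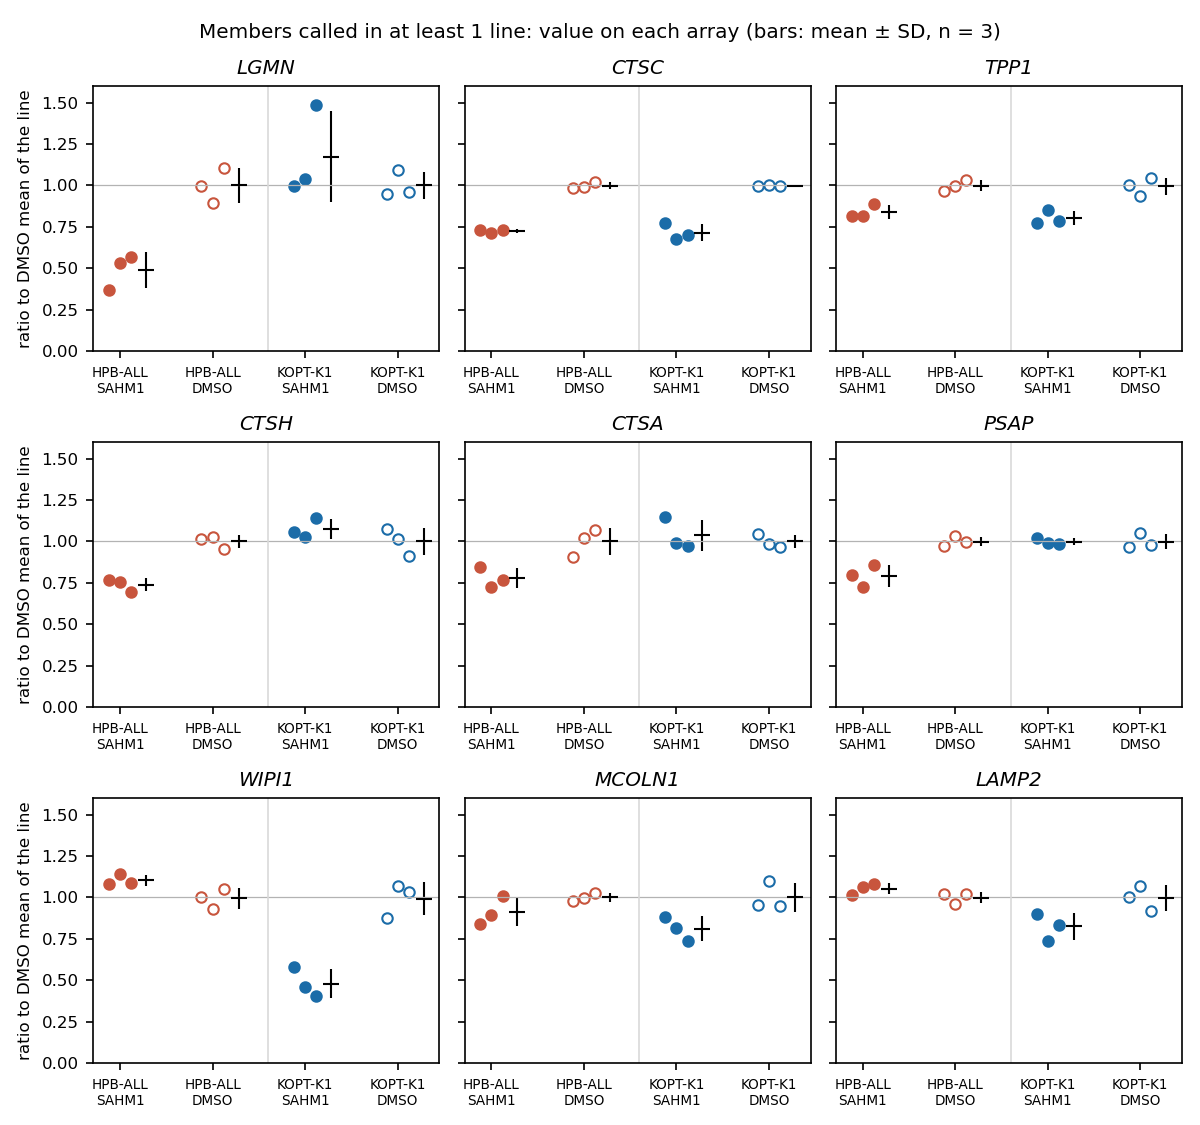
Value on each array, as the ratio to the DMSO mean of the same line, of the 9 genes that passed the test in at least 1 line; filled points are SAHM1 arrays, open points DMSO arrays, and the bars beside them the mean ± SD of the 3. LGMN, CTSH, CTSA and PSAP are low with SAHM1 in HPB-ALL, WIPI1, MCOLN1 and LAMP2 in KOPT-K1, and CTSC and TPP1 in both.

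Of the 5 membrane proteins, none passed in HPB-ALL (1 at an unadjusted p under 0.05, limma) and 2 fell in KOPT-K1. LAMP2, a heavily glycosylated protein of the lysosome wall that also serves chaperone-mediated autophagy, had KOPT-K1 ratios of 0.901, 0.738 and 0.837 with SAHM1, against 1.00, 1.07 and 0.917 with DMSO. The highest SAHM1 array was just under the lowest DMSO array. The change was -0.27 ± 0.08 (adjusted p = 0.032), with 1 of 4 probe sets called, and in HPB-ALL it was 0.08 ± 0.08 (adjusted p = 0.66). MCOLN1 encodes the lysosomal calcium channel mucolipin-1. Its KOPT-K1 ratios were 0.883, 0.818 and 0.736 with SAHM1, against 0.955, 1.10 and 0.947 with DMSO. All SAHM1 arrays were lower, and the change was -0.30 ± 0.09 (adjusted p = 0.0327). In HPB-ALL its groups overlapped, at 0.837, 0.897 and 1.01 with SAHM1, against 0.979, 0.995 and 1.03 with DMSO (-0.13 ± 0.09, adjusted p = 0.439). Both KOPT-K1 calls were lost without SAHM1 array 2 or 3 or DMSO array 1 or 2, with adjusted p from 0.0555 to 0.120 for LAMP2 and from 0.0519 to 0.125 for MCOLN1.

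LAMP1, the partner of LAMP2 in the lysosome wall, had a log2 change of -0.18 ± 0.06 in HPB-ALL (limma adjusted p = 0.0811), with all SAHM1 arrays lower, and of -0.0011 in KOPT-K1. NPC1, the membrane exporter of cholesterol, had a log2 change of 0.02 in HPB-ALL and of -0.16 in KOPT-K1. SCARB2, the receptor that carries glucocerebrosidase to lysosomes, had a log2 change of -0.13 in HPB-ALL and of -0.16 in KOPT-K1. Neither passed in either line.

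In the autophagy core, 1 of 13 genes passed, in KOPT-K1 alone. WIPI1, a protein that binds phosphatidylinositol 3-phosphate on forming autophagosomes, had KOPT-K1 ratios of 0.579, 0.458 and 0.405 with SAHM1, against 0.878, 1.07 and 1.03 with DMSO. The groups were far apart, and the change was -1.06 ± 0.11 (limma adjusted p = 9.79e-05), a 2.08-fold lower value. In HPB-ALL the ratios were 1.08, 1.14 and 1.09 with SAHM1, against 1.01, 0.929 and 1.05 with DMSO. Every SAHM1 array there was above every DMSO array, and the change of 0.15 ± 0.11 did not pass (adjusted p = 0.503). Both probe sets of WIPI1 passed in KOPT-K1, at -1.18 and -0.94.

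The other 12 core genes did not pass in either line. At an unadjusted p under 0.05, 1 core gene was lower in HPB-ALL, and in KOPT-K1 1 was higher and 2, with WIPI1, were lower. ULK1, the kinase that starts autophagy, had a log2 change of -0.37 ± 0.15 in HPB-ALL (limma adjusted p = 0.172). Its SAHM1 ratios of 0.785, 0.698 and 0.846 were all below the DMSO ratios of 1.02, 0.916 and 1.07. In KOPT-K1 ULK1 had a log2 change of 0.05 ± 0.15. ATG13, a subunit of the ULK1 complex, had a log2 change of -0.13 in HPB-ALL and of -0.23 ± 0.08 in KOPT-K1 (adjusted p = 0.0714). ATG14, which directs the BECN1 complex to autophagy, had a log2 change of -0.25 in HPB-ALL and of -0.21 in KOPT-K1. ATG5, part of the conjugate that lipidates MAP1LC3B, had a log2 change of 0.05 in HPB-ALL and of 0.14 in KOPT-K1. The kinase ULK2, BECN1 and its partner UVRAG, the conjugation proteins ATG7, ATG12 and ATG16L1, and the membrane tags MAP1LC3B and GABARAPL1 lay between -0.13 and 0.11 in HPB-ALL and between -0.12 and 0.17 in KOPT-K1.

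The responses of the lines were then set against each other, as the HPB-ALL change minus the KOPT-K1 change. This difference passed for 5 members, where 16.8% of all genes passed, 11.4% as higher and 5.41% as lower. For 4 of them it was negative: LGMN by -1.26 ± 0.24 (limma adjusted p = 0.00425), CTSH by -0.54 ± 0.11 (adjusted p = 0.00458), PSAP by -0.34 ± 0.10 (adjusted p = 0.0324) and CTSA by -0.41 ± 0.12 (adjusted p = 0.037). For WIPI1 it was positive, at 1.21 ± 0.16 (adjusted p = 0.000603). The LGMN difference draws on the HPB-ALL fall that was known when the list was made. The median over the members was -0.04, and over all genes -0.03. The difference was lost for PSAP without any 1 of 8 arrays (adjusted p from 0.0525 to 0.0787) and for CTSA without any 1 of 7 (adjusted p from 0.0723 to 0.0915). Both were also lost with the replicate number as a block (PSAP 0.0738, CTSA 0.0625), and all 5 under quantile normalization and with 18S and spike levels as covariates. For PSAP these were SAHM1 arrays 1 and 2 and DMSO arrays 2 and 3 of HPB-ALL, and SAHM1 arrays 1 and 2 and DMSO arrays 1 and 3 of KOPT-K1. For CTSA they were SAHM1 arrays 2 and 3 and DMSO arrays 2 and 3 of HPB-ALL, and SAHM1 array 1 and DMSO arrays 2 and 3 of KOPT-K1. For LAMP2 the difference of 0.35 ± 0.11 did not pass (adjusted p = 0.0528), nor for MCOLN1 at 0.17 ± 0.13 (adjusted p = 0.395). At the level of the gene, their responses are thus not shown to differ between the lines. Of the LAMP2 probe sets, 1 stood at 0.45 in HPB-ALL and -0.37 in KOPT-K1, uncalled in both. Its difference of 0.82 was called (limma adjusted p = 0.0361 over all probe sets), while those of the other LAMP2 probe sets, 0.06 to 0.29, were not. For CTSC the difference was 0.02 ± 0.09 (adjusted p = 0.901), a mean over probe sets of which 1 had a called negative and 1 a called positive difference, and for TPP1 0.06 ± 0.09 (adjusted p = 0.735).

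**Figure D3:**
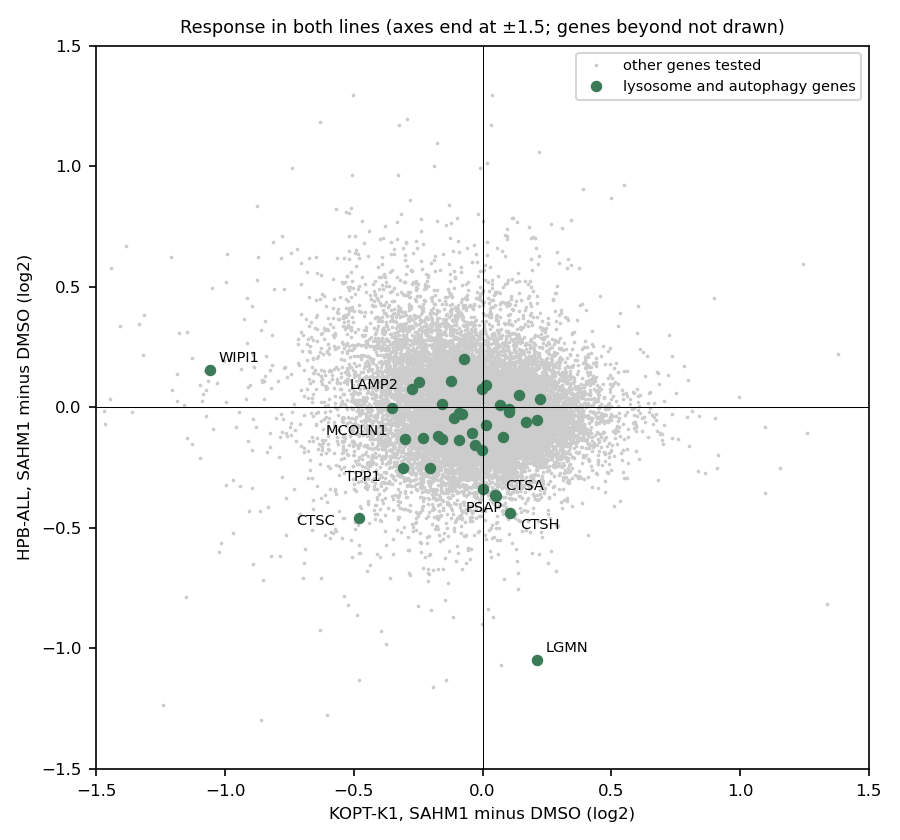
Log2 change with SAHM1 in HPB-ALL (vertical axis) against that in KOPT-K1 (horizontal axis) for the 37 genes in green and all other tested genes in grey; genes called in at least 1 line are named. LGMN lies low at a KOPT-K1 change of 0.21, WIPI1 far left at an HPB-ALL change of 0.15, and CTSC at about the same distance below 0 on both axes.

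In HPB-ALL the 18S signal given above differed between the SAHM1 and DMSO arrays as well. With each array's 18S level as a covariate, 0 of the 37 members passed there in limma, while 5 had an unadjusted p under 0.05. LGMN was then -0.97 ± 0.29 (adjusted p = 0.284), CTSH -0.48 ± 0.13 (adjusted p = 0.204) and CTSC -0.41 ± 0.10 (adjusted p = 0.178), so these 3 estimates moved by less than 0.1 and their errors grew. PSAP was -0.26 (adjusted p = 0.578), TPP1 -0.18 (adjusted p = 0.785) and CTSA -0.15 (adjusted p = 0.878). Over all genes, 52 were then called in HPB-ALL, against 1846 without the covariate. The part of the 18S signal in these results was not tested. In KOPT-K1, where the spike signal differed, 18S and spike levels as covariates left 597 genes called, against 3761 without them. WIPI1 was then -0.86 (adjusted p = 0.0245) and CTSC -0.43 (adjusted p = 0.0322). TPP1 at -0.28 (adjusted p = 0.152), LAMP2 at -0.18 (adjusted p = 0.451) and MCOLN1 at -0.19 (adjusted p = 0.452) no longer passed. The part of the spike signal was not tested.

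Among the 24 members with more than 1 probe set, single probe sets did not always move together. Over all probe sets, 5.15% were called in HPB-ALL and 14.6% in KOPT-K1. In HPB-ALL 1 member that did not pass as a gene had a called probe set: LAMP1, at -0.85 where its others lay between -0.06 and 0.11. In KOPT-K1 there were 7 such members. For 6 of them (CTSB, CTSS, NPC1, SCARB2, ATG13 and MAP1LC3B) the called probe sets were lower. For CTSS it was -0.78 and for NPC1 -0.70. GABARAPL1 had 1 called at 0.42 and the other at -0.22. The line difference of the called probe set passed for LAMP1 (-0.80, limma adjusted p = 0.0116) and CTSS (0.81, adjusted p = 0.0395). It also passed for NPC1 (0.90, adjusted p = 0.00278) and GABARAPL1 (-0.55, adjusted p = 0.0367). For CTSB, SCARB2, ATG13 and MAP1LC3B it did not. Over all probe sets, 11.7% passed for the difference. MCOLN1 has a single probe set that passed in KOPT-K1 among genes and missed among probe sets (limma adjusted p = 0.0565). Its change was the same in both fits, while its SE was 0.0887 among genes and 0.0977 among probe sets. The adjustment also ran over different sets of tests.

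**Figure D4:**
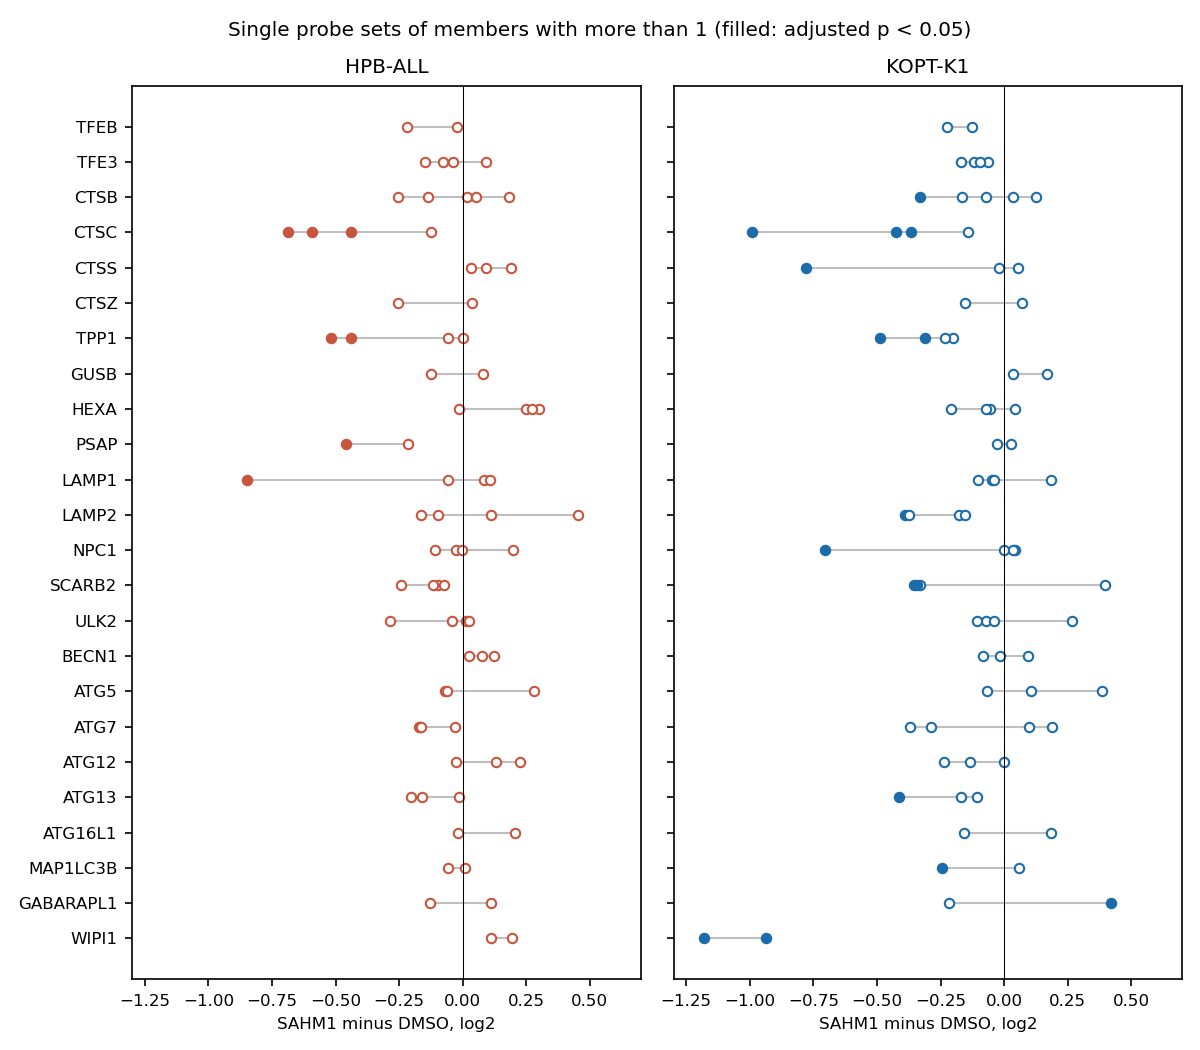
Log2 change with SAHM1 of each probe set of the 24 genes that have more than 1, in HPB-ALL (left) and KOPT-K1 (right); filled points passed the test over all probe sets and grey lines join the probe sets of a gene. The CTSC and WIPI1 probe sets lie on 1 side of 0, while single probe sets of LAMP1, CTSS and NPC1 lie apart from the others of their gene.

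Other genes of the same pathways, 140 of 151 listed by name, were read in the same fit; values after their names are log2 changes, SAHM1 minus DMSO. In HPB-ALL 8 rose and 7 fell (10.7% called, median -0.01). In KOPT-K1 10 rose and 17 fell (19.3% called, median -0.07). Both shares are near those of all genes (9.34% in HPB-ALL and 19.0% in KOPT-K1). The line difference passed for 31 of them, 19 positive and 12 negative (22.1%, against 16.8% of all genes).

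Of 16 subunits of the V-ATPase, the pump that acidifies lysosomes, 1 fell in HPB-ALL: ATP6AP1, at -0.51 (limma adjusted p = 0.0091). In KOPT-K1 ATP6V0B at 0.27 and ATP6V1E1 at 0.26 rose and ATP6V0E2 at -0.24 fell. Of 31 other hydrolases and cofactors, HYAL2, a hyaluronidase, fell in HPB-ALL (-0.49, adjusted p = 0.00822). In KOPT-K1 the collagen-cleaving cathepsin CTSK rose by 0.48 and GALC, which cleaves galactosylceramide, fell by 0.38. Of 18 other membrane proteins LAPTM5 fell in HPB-ALL (-0.24) and the transporter MFSD8 fell in KOPT-K1 (-0.34).

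Of 15 genes that sort enzymes to lysosomes, GNPTAB rose (0.31) and the adaptor GGA2 fell (-0.33) in HPB-ALL. GNPTAB and GNPTG encode subunits of the enzyme that starts the mannose 6-phosphate tag. In KOPT-K1 GNPTG rose (0.45), while VPS41 (-0.31), AP3B1 (-0.32) and the mannose 6-phosphate receptor M6PR (-0.31) fell.

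Of 34 other autophagy genes 3 rose in HPB-ALL and none fell (1 lower at an unadjusted p under 0.05, limma). That is 8.82% called, near the 9.34% of all genes. OPTN, an autophagy receptor for ubiquitin-marked cargo, had HPB-ALL ratios of 1.48, 1.73 and 1.64 with SAHM1, against 1.05, 0.892 and 1.04 with DMSO. Its groups were well apart (0.70 ± 0.09, limma adjusted p = 0.000578). The receptor NBR1 (0.25) and TMEM41B (0.23), a scramblase of early autophagosome membranes, rose as well. In KOPT-K1 2 rose and 3 fell (14.7% called, against 19.0% of all genes). The tags GABARAPL2 (0.28) and GABARAP (0.25) rose there. Among those that fell were RB1CC1 (-0.39), the scaffold of the ULK1 complex, and STX17 (-0.43), a fusion protein of autophagosomes.

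Of 21 genes of the TFEB family and of mTORC1 control on the lysosome, 3 rose and 3 fell in HPB-ALL (28.6% called). In KOPT-K1 4 rose and 6 fell (47.6% called). The shares of all genes were 9.34% in HPB-ALL and 19.0% in KOPT-K1. LAMTOR2 and LAMTOR4 encode subunits of the Ragulator scaffold. LAMTOR2 had ratios of 0.824, 0.756 and 0.868 with SAHM1 in HPB-ALL, against 0.945, 1.06 and 0.996 with DMSO. In KOPT-K1 its ratios were 1.21, 1.26 and 1.36 with SAHM1, against 0.975, 1.01 and 1.02 with DMSO. It thus fell in HPB-ALL (-0.29, limma adjusted p = 0.0222) and rose in KOPT-K1 (0.35, adjusted p = 0.00545), and the difference passed (-0.64 ± 0.10, adjusted p = 0.00146). PPP3CA, a catalytic subunit of calcineurin, which dephosphorylates TFEB, rose in HPB-ALL (0.35, adjusted p = 0.0091) and fell in KOPT-K1 (-0.30, adjusted p = 0.012). LAMTOR4 rose in KOPT-K1 (0.49), while RRAGD and FNIP2 fell there (both -0.32). In HPB-ALL FNIP1 rose (0.36) and RPTOR, the mTORC1 scaffold, fell (-0.61).

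Of 5 cystatins, the inhibitors of cathepsins and legumain, CSTA rose in HPB-ALL (0.47, limma adjusted p = 0.0211), and CST7 and CSTB fell in KOPT-K1. CST7 encodes cystatin F, which inhibits cathepsin C. Its KOPT-K1 ratios were 0.369, 0.301 and 0.425 with SAHM1, against 1.04, 1.06 and 0.904 with DMSO. All SAHM1 arrays lay far below (-1.47 ± 0.10, adjusted p = 2.35e-06), while in HPB-ALL the change was -0.07 ± 0.10 (adjusted p = 0.768). In KOPT-K1 the transcripts of cathepsin C and of cystatin F were thus both lower, and in HPB-ALL CTSC passed the test and CST7 did not.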

How the data were processed

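Expression was measured on 12 arrays of 54675 probe sets. The deposited values are linear ratios, and the file shows that the DMSO arrays of each line average 1 in all 54675 probe sets (tolerance 1e-06). Per the submitters' processing notes RMA was used, in a version not given in the sources used here. For this work log2 was taken of each ratio without a pseudocount. The 41091 probe sets with 1 annotated symbol gave 19775 genes by averaging, and the 1801 with several symbols were not used.

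Tests were two-sided and came from limma (version 3.58.1, run under R version 4.3.3): a linear model with a mean for each of the 4 groups and moderated variances, with 8 residual degrees of freedom. P-values were adjusted by Benjamini-Hochberg over all genes and called under 0.05; 54613 probe sets were fitted likewise. The steps were tested on simulated data. Precision is limited by 3 arrays per group; the median SE was 0.08. The filter on dim probe sets that had been planned needs levels and was not run.

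The rule gave per-array values for LGMN and members called in a line or in the line difference; those of TFEB and ULK1, which were not called, were added after they were seen. Of each other list up to 4 called genes per line with the smallest p are named, some with array values added after they were seen. Members, lists and tests were chosen with earlier results of these data known. Alternatives covered normalization, probe sets, the moderation, each line alone, 18S and spike covariates, the replicate number as a block, and each array left out in turn.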

Additional observations from a re-analysis of the deposited data

Results flagged for a closer look

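For 5 members the response to SAHM1 in HPB-ALL differed from that in KOPT-K1 by the limma test of the difference itself (16.8% of all genes did so). As HPB-ALL change minus KOPT-K1 change, on the log2 scale, it was 1.21 ± 0.16 (SE) for WIPI1, -1.26 ± 0.24 for LGMN, -0.54 ± 0.11 for CTSH, -0.34 ± 0.10 for PSAP and -0.41 ± 0.12 for CTSA. WIPI1 was 2.08-fold lower with SAHM1 in KOPT-K1 and LGMN 2.07-fold lower in HPB-ALL. In the other line, WIPI1 stood at 0.15 and LGMN at 0.21, and neither passed there. The fall of LGMN in HPB-ALL was known when the list was made, so its difference is not that of an unselected gene. Under quantile normalization none of the 5 differences passed (adjusted p from 0.0516 for LGMN to 0.22 for CTSA), nor with 18S and spike levels as covariates (0.216 for WIPI1 to 0.743 for CTSA). With 18S alone WIPI1 passed (1.21, adjusted p = 0.0347) and the other 4 did not. The difference was lost under 12 of 19 alternatives for PSAP and under 11 of 20 for CTSA.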

How the results depend on the processing

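Of 2994 values of single members under the alternatives, none that was called changed direction: 2845 stayed on their side of the threshold, 126 lost it and 23 gained it. WIPI1 in KOPT-K1 was called under all 21 alternatives (-1.20 to -0.63). LGMN in HPB-ALL was lost in 2 of 21, those with 18S, or 18S and spike levels, as covariates. The counts below are given for HPB-ALL, KOPT-K1, the line difference and the mean of both lines, in that order. Without any covariate 6, 5, 5 and 6 members and 1846, 3761, 3323 and 2231 genes were called. With 18S and spike levels as covariates 0, 3, 0 and 1 members and 39, 597, 68 and 397 genes were called in limma; at an unadjusted p under 0.05 it was 4 members in HPB-ALL and 6 for the difference. With 18S alone 0 members passed in HPB-ALL (5 unadjusted), 1 for the difference and 3 for the mean, with 52, 324 and 752 genes. Quantile normalization left 3, 1, 0 and 1 members (5 unadjusted for the difference) and 417, 132, 200 and 295 genes. It gave 138 higher and 279 lower genes in HPB-ALL, where 980 and 866 were called without it, and 25 and 107 in KOPT-K1, where 1156 and 2605 were. It makes the spread of all arrays equal, while the interquartile range of log2 ratios was 0.25 to 0.357 on SAHM1 arrays and 0.137 to 0.169 on DMSO arrays. Without probe sets ending in _x_at or _s_at, 3, 2, 3 and 2 members were called, with 1019 genes in HPB-ALL, 2497 in KOPT-K1 and 1239 for the mean. Members measured by such probe sets alone drop out untested, among them CTSH and PSAP, called in HPB-ALL, and MCOLN1, called in KOPT-K1. TPP1 was still measured and lost its call in both lines, as did LAMP2 in KOPT-K1. Each line fitted alone gave 3 members in KOPT-K1. Leaving out 1 array gave 4 to 6, 3 to 7, 3 to 5 and 3 to 6 members and 913 to 2012, 2528 to 3885, 2341 to 3369 and 1532 to 2202 genes, with the fewest genes in HPB-ALL without its SAHM1 array 2. Calls were gained in KOPT-K1 for NPC2 (adjusted p from 0.0305 to 0.0472) and ATG13 (0.0291 to 0.0464) without HPB-ALL DMSO array 1 or 2, for CTSD (0.0221 to 0.0429) without HPB-ALL DMSO array 3 or KOPT-K1 SAHM1 array 1, and for GLA (0.0498) without KOPT-K1 SAHM1 array 2. They were gained for the difference for LAMP2 (0.0263 to 0.0364) without KOPT-K1 SAHM1 array 1 or DMSO array 3 and for HEXA (0.0398) without HPB-ALL SAHM1 array 2. Replicate numbers share only a number: same-numbered SAHM1 and DMSO arrays of a line correlated in their deviations by -0.05 to 0.07. With the replicate number as a block, 5, 4, 3 and 4 members and 1261, 3071, 2616 and 1692 genes were called. Centring on the median, the median over probe sets and robust moderation left all 4 counts of members and of genes within 1.5 times. Ratios hold no signal over background, so a filter on dim probe sets was not run, and a dim member cannot be told from a bright one.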
